A study of Mus musculus with 5 samples.

Results

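I cells are the enteroendocrine cells (EECs) of the small intestine that make cholecystokinin, and the cells described here are those with very high Cck and with little Gcg, Pyy or Tph1. They were selected on measured values in 1 droplet library: at least 500 Cck UMIs (unique molecular identifiers, which count captured mRNA molecules) per 10000 UMIs of the cell, under 20 for Gcg and Pyy together, under 10 for Tph1, under 500 for Gip, under 1500 for Ghrl, under 500 for Sst, and under 500 for the goblet genes Zg16, Fcgbp, Clca1 and Spink4 together. This selection gave 431 I cells of 9451 cells in all, 4.56% (exact binomial 95% interval 4.15 to 5.00%). Counted as cells were barcodes with over 1000 genes detected whose mitochondrial transcripts took less than 10% of the UMIs.

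The study asked how EEC types of the mouse gut act on feeding, and the droplet library served to list those types. It held tdTomato+ small intestinal epithelial cells pooled from 4 C57Bl/6J mice of genotype Neurog3-Cre; R26-LSL-tdTomato, aged 6 weeks and given no treatment. Neurog3 drives Cre in EEC progenitors, so the reporter marks their descendants, and pooling leaves no animal apart from another. For bulk RNA sequencing, 6 C57Bl/6J mice of genotype Cck-Cre; R26-LSL-tdTomato, aged 6 to 8 weeks, each gave 1 library of tdTomato+ (CCK+) and 1 of tdTomato- (CCK-) small intestinal epithelial cells. Mice A, B and F were fasted overnight, and mice C, D and E were fasted and then refed with the liquid diet Ensure, which makes 4 groups of 3 libraries. The Cre reporter in these mice stays on in a cell, and in its progeny, after Cck itself is no longer made. The 431 I cells held 2812326 UMIs, with a median of 6272 UMIs (range 2107 to 29337) and 1882 genes per cell. The bulk libraries summed to between 7.06e+06 and 1.14e+07 normalized counts, a sum on the scale of the deposited table and not a depth in reads.

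Cholecystokinin is released when fat and protein reach the upper small intestine. It makes the gallbladder contract and the pancreas secrete enzymes, slows the emptying of the stomach, and signals satiety through the vagus nerve. EECs package such peptides in granules built with granins, after prohormone convertases and other enzymes have trimmed and modified the precursors.

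Levels below are UMIs of a gene per 10000 UMIs, summed over all cells of a type, with Poisson 95% intervals; a UMI stands for a molecule, so levels of different genes are compared as molecules and not per length. With 1 library there are no replicates, no test was made between cell types, and the intervals cover counting error only. The I cells were set beside types selected in the same way. N/L cells (307 cells, median 5760 UMIs) had the same limits but at least 20 UMIs of Gcg and Pyy per 10000. Another 223 cells had Cck at or above its limit together with at least 10 of Tph1 (median 6406 UMIs). K cells (154) were selected on Gip, X cells on Ghrl, D cells (46) on Sst, enterochromaffin (EC) cells (1743) on Tph1 without Cck, and goblet-type cells (4177, median 6898 UMIs) on the 4 goblet genes. Of the 1246 cells at or above the Cck limit, 34.6% (31.9 to 37.3%) were I cells, 24.6% N/L cells and 17.9% cells with Cck and Tph1, and the other 285 (22.9%) lay past another limit.

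The values that chose the I cells are given as a description. Cck stood at 1756 (1751 to 1761) in I cells, against 1762 in N/L cells, 1453 in cells with Cck and Tph1, 320 in K cells and 15.7 in goblet-type cells. Free RNA, the sum of barcodes with 1 to 100 UMIs, held Cck at 111. Gcg stood at 3.63 in I cells and 73.5 in N/L cells, Pyy at 1.27 and 55.6, and Tph1 at 3.26 in I cells against 20.7 in cells with Cck and Tph1. For Pyy and Tph1 the I cell level was below that of free RNA, 4.22 and 6.15, and for Gcg it was above the 1.80 of free RNA. Gip stood at 13.0 in I cells and at 67.6 in free RNA. The other markers given for I cells that the selection did not use were secretin (Sct), the transcription factor Onecut3, the secreted protease inhibitor Pzp and the cytochrome P450 Cyp2j5. Sct stood at 1305 (1300 to 1309) in I cells, Onecut3 at 2.23 (2.05 to 2.41), Pzp at 1.75 (1.59 to 1.91) and Cyp2j5 at 0.949 (0.839 to 1.07). In goblet-type cells the last 3 were at 0.0298, 0.0102 and 0.00951, and in free RNA at 0.169, 0.0548 and 0.0697. Sct was at 171 in free RNA. The 4 markers that the selection did not use were thus above free RNA in I cells, and the label I cell was kept. This does not set I cells apart from the other Cck-high cells. Sct was higher in N/L cells than in I cells. Onecut3 and Pzp were lower in N/L cells, but with Cyp2j5 they did not separate I cells from cells with Cck and Tph1, as given below. Cck and Sct together made up 30.6% of the UMIs of I cells, and 8 hormone genes 34.4%.

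**Figure D1:**
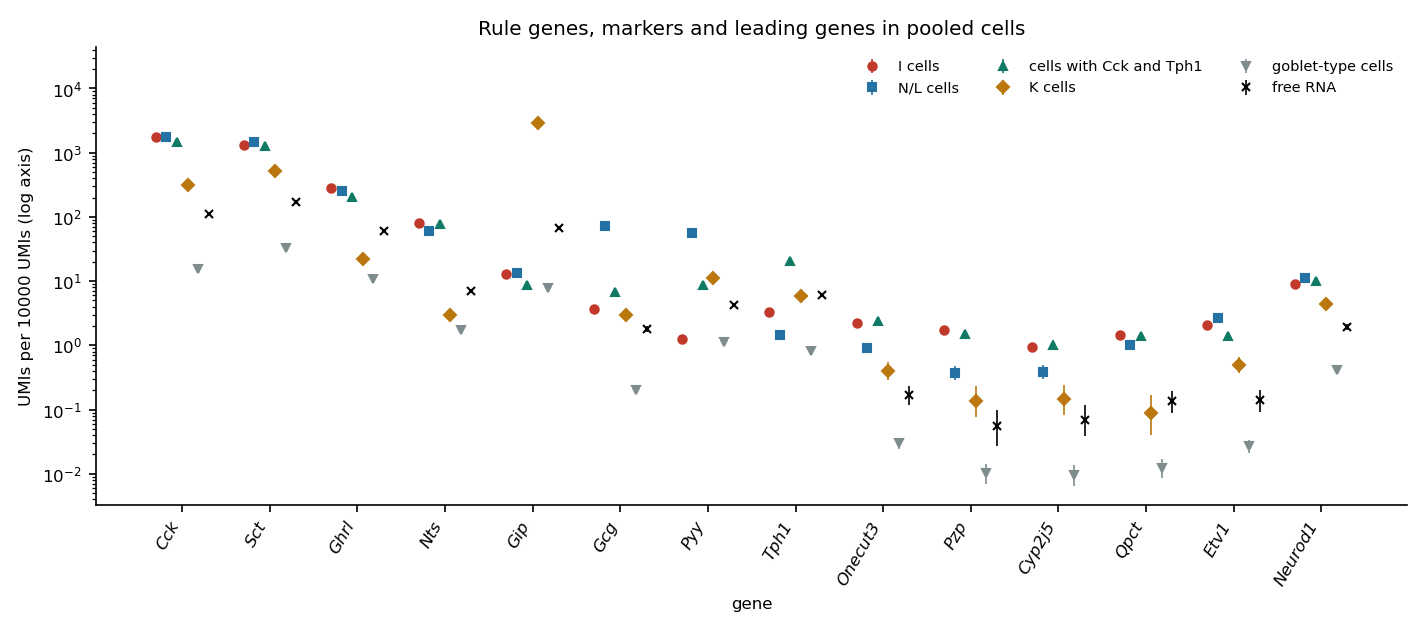
Summed levels (UMIs per 10000 UMIs, log axis) of the genes used in the selection, of markers and of leading genes in I cells, N/L cells, cells with Cck and Tph1, K cells, goblet-type cells and free RNA; bars are Poisson 95% intervals. Onecut3, Pzp, Cyp2j5 and Qpct sit near 1 to 2 in I cells and under 0.2 in free RNA.

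Cells close to a limit were compared in sets of 20, all other limits met. On Cck, the 20 I cells nearest the limit had 502 to 845 UMIs per 10000 and the 20 nearest outside had 242 to 468. The summed Onecut3 level was 1.32 in the first set and 0.527 in the second, and Pzp was 1.11 and 0.226. Few cells thus lay close to the Cck limit on either side. Cells lay close on both sides of the limits on Gcg with Pyy and on Tph1. On Gcg and Pyy together, the nearest I cells had 16.6 to 19.9 and the nearest N/L cells 20.1 to 22.8. On Tph1, the nearest I cells had 8.83 to 9.99 and the nearest outside 10.1 to 11.2. Outside the limits on Gip, Ghrl, Sst and the goblet genes lay 21, 10, 0 and 132 cells that met all the others. With Gcg and Pyy held under 10 and Tph1 under 5, 239 cells remained, 2.53% of all cells.

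Cck and Sct were the most abundant transcripts of I cells, and the promoters of Cck, Sct and Pzp are shown. These 3 genes were chosen after the motif that they share was seen, and the promoters of Cyp2j5 and Nts, searched in the same way, held no HNF6 core. The sequences are from RefSeq on GRCm38.p6, 250 bases before to 50 after the start of the gene, on the strand of the gene. Capitals mark ATCAAT or ATTGAT (the core bound by the HNF6 family, to which Onecut3 belongs), CATCTG or CAGATG (an E-box bound by NEUROD1), TATAAA or TTTATA, and GGGCGG or CCGCCC (a GC box). Cck lies at chr9:121495645-121495944, Sct at chr7:141279084-141279383 and Pzp at chr6:128526671-128526970, all on the minus strand.
Cck: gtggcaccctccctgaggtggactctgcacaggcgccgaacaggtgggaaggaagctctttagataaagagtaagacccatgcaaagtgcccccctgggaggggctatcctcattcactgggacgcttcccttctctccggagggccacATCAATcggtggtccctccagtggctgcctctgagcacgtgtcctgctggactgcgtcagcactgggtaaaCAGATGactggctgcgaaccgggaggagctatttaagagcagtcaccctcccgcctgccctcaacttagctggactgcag
Sct: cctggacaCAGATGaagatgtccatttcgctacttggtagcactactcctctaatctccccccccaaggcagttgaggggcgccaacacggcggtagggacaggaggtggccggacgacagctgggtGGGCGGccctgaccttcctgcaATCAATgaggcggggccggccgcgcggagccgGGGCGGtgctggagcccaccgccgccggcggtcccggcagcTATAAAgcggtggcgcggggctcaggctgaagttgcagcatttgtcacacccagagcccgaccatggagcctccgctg
Pzp: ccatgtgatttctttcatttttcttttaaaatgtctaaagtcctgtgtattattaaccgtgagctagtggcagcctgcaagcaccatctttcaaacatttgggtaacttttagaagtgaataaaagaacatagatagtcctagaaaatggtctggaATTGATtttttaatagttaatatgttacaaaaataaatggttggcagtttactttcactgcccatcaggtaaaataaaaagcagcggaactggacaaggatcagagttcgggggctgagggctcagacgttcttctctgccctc
Both Cck and Sct had ATCAAT with its first base at -101, and Pzp had ATTGAT with its first base at -94. CAGATG began at -30 in Cck and at -242 in Sct, and Sct alone of the 3 had TATAAA, at -28. Of 30 genes that led I cells, described next, 24 had a promoter in the table; Fam101a, Gm933, Onecut3, Qpct, Rfxap and Tmem27 had none. The HNF6 core was in 6 of these 24 (Sis, Gimd1, Pzp, Sct, Cck and Pgc) and in 7.76% of all 27025 promoters of this length; each motif was searched on both strands. The E-box was in 7 of 24 and 17.2% of all, the TATA motif in 5 of 24 and 14.2%, the GC box in 10 of 24 and 35.9%, and the cyclic AMP element TGACGTCA in 1 of 24 (Scg2) and 1.88%. A match shows that the letters are present and nothing about binding.

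Leading genes were ranked by the lowest of their ratios to K, X, D, EC and goblet-type cells, among the 1029 genes with a level of at least 1 and a UMI in at least 20% of I cells. In 21 of the 1029 (2.04%) the I cell level was at least 2-fold that of each of the 5 types, and the first 30 genes were kept as leading genes. Neurotensin (Nts) came first, with a lowest ratio of 26.7 (to K cells), followed by Pzp with 12.04 (to X cells), and Qpct with 9.01 (to D cells). Qpct forms the pyroglutamate that begins mature neurotensin and some other peptides. The stomach protease precursor Pgc had a lowest ratio of 5.84, Cck itself 5.49, the plasma serine protease Habp2 4.30 and Onecut3 3.81 (to EC cells). Enzymes and surface proteins of the absorptive epithelium were among the next genes: the flavin monooxygenase Fmo5 (3.54), the cytochrome P450 Cyp2j6 (3.44) and Ms4a10 (3.35). After Fars2 came the ETS transcription factor Etv1 (2.71), the kidney and islet protein Tmem27 (2.68) and secretogranin 2, Scg2 (2.59). Enterocytes were not among the 5 types, nor were N/L cells and cells with Cck and Tph1. In these 2 types Nts stood at 60.4 and 76.4 and Qpct at 1.003 and 1.42, beside 80.1 and 1.43 in I cells, and 10 of the 30 leading genes were higher in N/L cells than in I cells. Among these were the marker Sct, Fars2 (3.15 against 2.18), Etv1 (2.63 against 2.06), Scg2 (36.7 against 33.7) and Sis (9.85 against 9.09). In cells with Cck and Tph1 7 of the 30 were higher than in I cells, Onecut3 and Pgc among them.

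Onecut3 had a UMI in 66.8% of I cells (62.2 to 71.3%), and in 32.3% after each cell was thinned at random to 2000 UMIs, which left out no I cell. In goblet-type cells (median 6898 UMIs, against 6272 in I cells), 1.82% had a Onecut3 UMI and 0.527% after thinning. Pzp was seen in 54.5% of I cells (26.7% thinned) and 0.694% of goblet-type cells (0.215% thinned). Qpct was seen in 53.6% (24.4% thinned) and 0.838% (0.168% thinned). Cyp2j5 was the sparsest marker, with a UMI in 29.2% of I cells (12.8% thinned) against 0.215% of goblet-type cells when thinned. Nts had a UMI in 75.2% of I cells (58.9% thinned) and in 38.3% of goblet-type cells (13.9% thinned). Cells with Cck and Tph1 had a UMI of Onecut3, Pzp and Qpct in 65.02, 55.2 and 51.1% of cells, and N/L cells in 23.8, 12.7 and 36.2%.

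Hormone genes in I cells went beyond Cck and Sct. Of 25 peptide and amine hormone genes listed, 8 were at 1 or more per 10000 in I cells, of which Gip, Pyy and Tph1 were below free RNA. Ghrl, the ghrelin precursor, stood at 285 (283 to 287) with a ceiling set by the selection, and Nts at 80.1 (79.1 to 81.2). Gastrin (Gast) reached 0.786 (0.686 to 0.897) in I cells against 0.0498 in free RNA and 0.138 in K cells. Penk, Npy, Vip and Ppy had no UMI in any I cell, which allows a share of cells with a UMI of up to 0.696% for each. The acyltransferase that activates ghrelin, Mboat4, stood at 0.0569 (0.0325 to 0.0924), from 16 UMIs.

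Enzymes that process prohormones made up 32.9 UMIs per 10000 in I cells, close to the 32.6 in N/L cells and 33.6 in K cells, summed over the 14 genes listed. Carboxypeptidase E (Cpe) was the most abundant, at 14.8 (14.4 to 15.3), then the convertase inhibitor Pcsk1n at 4.66 and the convertase Pcsk1 at 3.09 (2.89 to 3.30). The amidating enzyme Pam, needed for the amidated end of cholecystokinin and secretin, stood at 2.42, and the tyrosine sulfotransferase Tpst2, which acts on peptides such as cholecystokinin, at 1.05. The second convertase, Pcsk2, had no UMI in I cells. Of the 7 genes of this list at 1 or more in I or K cells, Qpct alone differed at least 2-fold between them, by 16.2-fold. Its level in K cells was 0.0886, below that of free RNA, 0.134.

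Granins and granule proteins had a lower summed level in I cells than in the other Cck-high cells. The 30 genes of this list summed to 112 in I cells, 221 in N/L cells, 185 in cells with Cck and Tph1 and 136 in K cells. Chromogranin B (Chgb) accounted for most of this, at 53.3 (52.4 to 54.1) in I cells and 149 (147 to 151) in N/L cells. Scg2 went the other way against K cells, at 33.7 (33.1 to 34.4) in I cells and 13.0 in K cells. Chromogranin A (Chga) stood at 5.79 (5.51 to 6.08) in I cells, under the 13.2 of free RNA. How much of the I cell level came from free RNA was not tested.

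Transcription factors of the endocrine list summed to 24.3 in I cells. Neurod1, which acts late in EEC differentiation, was the most abundant at 8.88 (8.53 to 9.23), with a UMI in 98.6% of I cells and 4.38 in K cells. Onecut3, Etv1 and Onecut2 followed at 2.23, 2.06 and 1.92, and Isl1, a LIM factor of many EECs, at 1.30 (1.17 to 1.44). Onecut2 was not particular to endocrine cells in this library, at 1.21 in goblet-type cells and 1.25 in free RNA. Against K cells, Onecut3, Etv1 and Neurod1 were at least 2-fold higher, and Isl1, Pax6 and Rfx6 at least 2-fold lower. Rfx6 stood at 0.0853 (0.0547 to 0.127) in I cells and 1.07 in K cells, the largest ratio of the list at 12.6. Neurog3, the factor of progenitors that drives Cre in these mice, had no UMI in I cells, nor had Onecut1, Pou2f2 or Insm2. Of 17 factors that pattern the gut along its length, none reached 1, with Cdx2 the most abundant at 0.978, and Hoxb6, Hoxb8 and Hoxb9, which mark distal gut, had no UMI.

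Receptors for nutrients were sparse. Of 20 genes in the list of nutrient and bile acid receptors, 3 reached 1 in I cells: the fatty acid receptors Ffar2 at 1.43 (1.29 to 1.57), Ffar1 at 1.19 (1.07 to 1.33) and Ffar4 at 1.06 (0.939 to 1.18). Ffar4 was at 1.49 in goblet-type cells and 1.05 in free RNA, so it was not particular to I cells. How much of its I cell level came from free RNA was not tested. Ffar2 stood at 0.433 and Ffar1 at 0.110 in free RNA. The taste receptor genes Tas1r1, Tas1r2 and Tas1r3, and Gprc6a, had no UMI in I cells. In the lists of nutrient transport (18 genes), hormone and transmitter receptors (29) and synaptic and adhesion proteins (22), no gene reached 1 in I cells, and the most abundant were Hk2 at 0.700, Insr at 0.302 and Pclo at 0.832. Among 34 ion channel genes 2 did, led by Cacna2d1 at 1.66 (1.51 to 1.81). The receptors for cholecystokinin and secretin, Cckar, Cckbr and Sctr, had no UMI in I cells.

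Markers of other epithelial types in I cells stayed at or below free RNA for most lists. The 12 goblet genes summed to 386 in I cells, 354 in N/L cells, 4419 in goblet-type cells and 2253 in free RNA, with Tff3 the most abundant. The selection capped 4 of these genes in I and N/L cells and chose goblet-type cells on them. Paneth genes summed to 35.1 in I cells and 376 in free RNA, led by Defa24. Enterocyte genes summed to 46.5 and 112, tuft genes to 1.06 and 2.27, cycling and stem genes to 1.07 and 2.66, and immune genes to 0.914 and 2.98. Sis, the brush border sucrase-isomaltase, and the protein disulfide isomerase Agr2 did not follow free RNA: Sis stood at 9.09 (8.74 to 9.45) in I cells and 2.01 in free RNA, and Agr2 at 56.2 (55.4 to 57.1) and 28.0. Some enterocyte UMIs of I cells came from single cells, with 48.9% of S100g UMIs and 27.7% of Reg1 UMIs each in 1 cell. No doublets were removed for the values given here. Scrublet's automatic threshold called 0 cells. The 715 highest-scoring cells (7.57% of all) held 13 I cells (3.02%, 1.62 to 5.10%), 13 N/L cells (4.23%), 18 K cells (11.7%) and 56 cells with Cck and Tph1 (25.1%). Without these, Reg1 in I cells was 1.83 in place of 2.36, and Onecut3 was 2.23 in both.

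I cells were first compared with N/L cells. Of 1085 genes with a level of at least 1 in either type, 18 (1.66%) were at least 2-fold higher in I cells and 9 (0.829%) at least 2-fold lower. Pgc had the largest ratio, at 1.32 (1.19 to 1.46) in I cells and 0.145 (0.0947 to 0.212) in N/L cells, a 9.13-fold difference. Habp2 was 5.02-fold and Pzp 4.68-fold higher, and Onecut3 2.47-fold, so that 2 of the markers given for I cells also set them apart from N/L cells. The plasma protein precursor Ambp stood at 8.33 (7.997 to 8.68) and 3.39 (3.12 to 3.67), and Rgs2, a brake on G protein signaling, at 9.66 (9.30 to 10.0) and 4.25 (3.95 to 4.56). Serpina1b and the uncharacterized D930028M14Rik were 2.48-fold and 2.44-fold higher. S100g and Reg1, also over 2-fold, carry the limit of single cells given above. Tph1, itself a gene of the selection, was 2.23-fold higher in I cells, and all 3 were below free RNA in both types.

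Among the 9 genes lower in I cells, Gcg, Pyy and Sst were genes of the selection. Chgb was 2.80-fold and Chga 2.33-fold lower in I cells than in N/L cells. The nuclear receptor Nr4a2 stood at 0.900 (0.792 to 1.02) against 1.91 (1.71 to 2.12), and Ubqln2 at 0.836 against 1.84. Afp, the fetal serum protein, stood at 0.324 against 1.92, and the lectin Reg4 at 4.45 against 11.3. Afp, Reg4 and Sst were below free RNA (2.96, 36.8 and 9.21) in both types. Without the cells with the highest doublet scores, Afp in N/L cells was 0.986, Reg4 4.92 (4.44 in I cells) and Chga 11.1, below free RNA (5.79 in I cells). Reg4 and Chga were then no longer past 2-fold. Afp, at 0.310 in I cells, was still over 2-fold lower but was not counted, since neither level reached 1. The other 6 lower and all 18 higher genes were still past 2-fold. Leaving UMIs of the 8 hormone genes out of the totals raises the level of every gene, so that more genes reach 1 and can pass. In this alternative, chosen after seeing the data, 22 genes were higher and 14 lower, with 16 and 9 shared with the counts above.

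**Figure D2:**
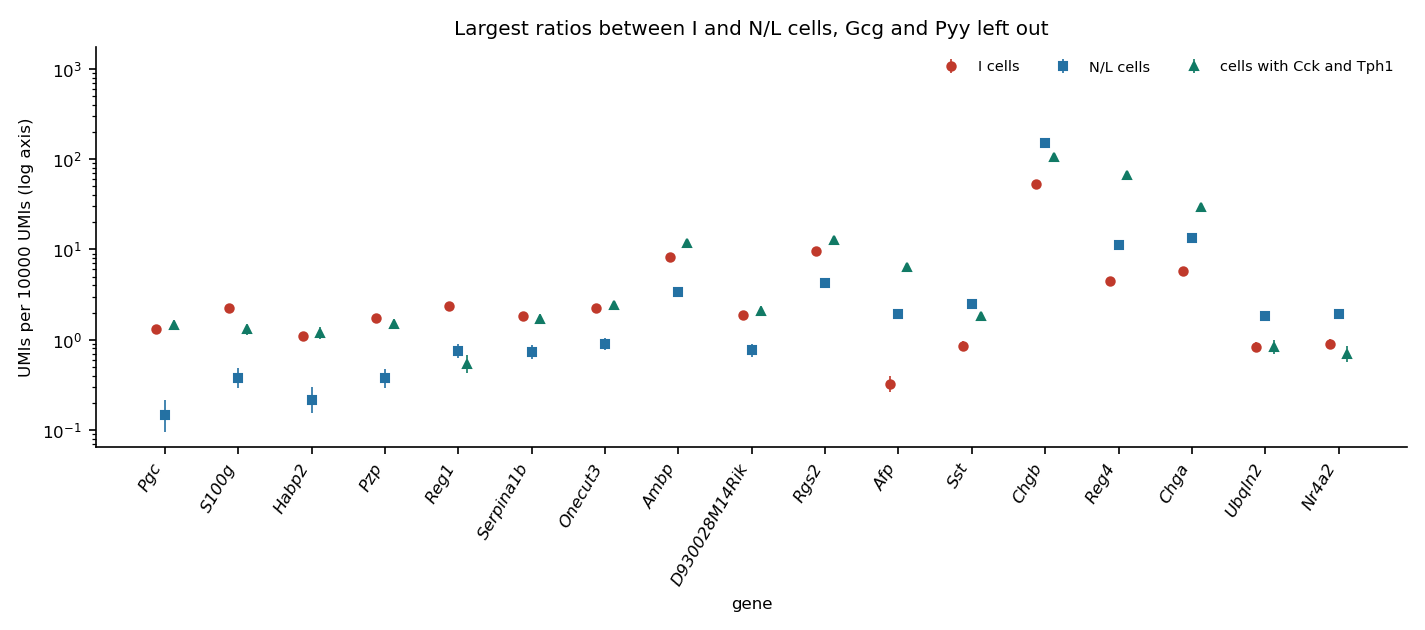
Summed levels (UMIs per 10000 UMIs, log axis) of the 10 genes with the largest ratios of I to N/L cells and of the genes at least 2-fold lower in I cells, Gcg and Pyy left out, with cells with Cck and Tph1 beside them; bars are Poisson 95% intervals. From Pgc to Rgs2 I cells are the higher of the first 2 types, and from Afp to Nr4a2 the lower.

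Of the 27 genes past 2-fold between I and N/L cells, 11 were in a gene list and 16 in none, and the median log2 ratio over all 1085 genes was 0.08. Of the 5 I cell markers, 4 were measured at 1 or more and 2 were higher (median 0.65). Of 9 hormone genes, 1 was higher and 3 lower (median -0.02), all of them genes of the selection. Of 10 granule genes, 2 were lower (Chgb and Chga, the latter only with the highest doublet scores included) and none higher (median -0.44), and of 9 endocrine transcription factors Onecut3 was higher and Nr4a2 lower (median -0.33). Of 9 enterocyte genes, 2 were higher, Reg1 among them, and none lower (median 0.53). The other lists had no gene past 2-fold: 7 processing enzymes (median 0.10), 7 goblet genes (-0.07), 5 Paneth genes (0.05), 3 nutrient receptors (-0.14), 2 ion channels (-0.35) and 1 regional factor (-0.14). No gene of the lists for nutrient transport, hormone receptors, synaptic proteins, tuft, cycling or immune cells reached 1 in either type.

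Cells with Cck and Tph1 were compared in the same way. Of 1133 genes, 4 (0.353%) were higher in I cells and 26 (2.29%) lower. Afp stood at 0.324 (0.261 to 0.397) in I cells and 6.44 (6.03 to 6.86) in cells with Cck and Tph1, the neuropeptide precursor Cartpt at 0.263 and 3.96, and Reg4 at 4.45 and 66.2. Chga was 5.06-fold lower in I cells, the cyclin Ccnd2 5.74-fold, Serpina1c 3.05-fold and the vesicle calcium sensor Syt7 2.42-fold. All 26 lower genes stood at least 2-fold higher in EC cells than in I cells, Afp at 32.8, Reg4 at 334, Cartpt at 18.0 and Chga at 132. The 4 higher genes were Reg1, Reg3g, Reg3b and Pycard, each below free RNA in both types, as were 9 of the 26 lower genes, among them Apoa1, Sst and Ccl5. The markers Onecut3, Pzp and Cyp2j5 did not separate these cells from I cells, at 2.42, 1.499 and 1.02 in cells with Cck and Tph1. Of those cells 25.1% had a high doublet score, and without these Afp was 3.13, Reg4 35.1 and Chga 20.7, where free RNA held 2.96, 36.8 and 13.2. In this alternative, chosen after seeing the data, 3 genes were higher and 19 lower, with 1 and 18 shared with the counts above; Reg3b, Reg3g and Pycard were no longer higher, nor were 8 genes lower, Apoa1 among them. Over the lists, 0 of 5 markers, 4 of 11 hormone genes (Tph1, Pyy, Cartpt and Sst), 2 of 11 granule genes (Chga and Syt7), 1 of 7 transcription factors (Sox4) and 1 immune gene (Ccl5) were lower in I cells. Their medians were 0.05, -0.70, -0.42, -0.14 and -1.05, beside -0.06 for all genes. Tph1, Pyy and Sst are genes of the selection, and Sox4, Ccl5 and Sst did not pass 2-fold without the highest doublet scores. Of 11 enterocyte genes 2 were higher and 2 lower (median 0.45). None of 8 processing enzymes (-0.04), 7 goblet genes (-0.11), 5 Paneth genes (-0.04), 3 nutrient receptors (0.03) or 2 ion channels (-0.47) passed 2-fold.

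K cells differed more widely from I cells. They were selected on Gip with no limit on Cck, and 21 of them met all limits of I cells other than that on Gip. Of 1114 genes, 74 (6.64%) were higher and 57 (5.12%) lower in I cells, of which 3 and 21 were below free RNA in both types. Leaving UMIs of the 8 hormone genes out of the totals, as for N/L cells, raises the level of every gene, so that more genes reach 1 and can pass. With these totals 101 genes were higher and 108 lower. Of these, 69 and 57 were shared with the counts above. The comparison with K cells was not made without the highest doublet scores. The genes named in this comparison were chosen after their values were seen. Besides Nts (26.7-fold) and Qpct (16.2-fold), the lipoprotein carrier Apom was 11.7-fold, the corepressor Tle1 7.17-fold, Agr2 6.67-fold and Agr3 6.19-fold higher in I cells. Genes near absence in I cells included the imprinted Nnat at 0.0178 (0.00577 to 0.0415) and the cannabinoid receptor Cnr1 at 0.0391 (0.0195 to 0.06998), against 1.55 and 1.41 in K cells. The fatty acid binding protein Fabp5 stood at 2.73 and 51.7, and the retinol carrier Rbp4 at 20.8 and 42.0. By list, 4 of 4 markers measured were higher, and of 9 hormone genes 4 were higher and 3 lower, with medians of 2.46 and 0.30 beside 0.13 for all genes. Cck, counted in both lists, Ghrl, Gip and Pyy are genes of the selection. Of 10 transcription factors 3 were higher and 3 lower (median -0.53), of 8 granule genes 1 and 1 (-0.39), of 10 enterocyte genes 1 and 2 (-0.38), and of 4 nutrient receptors Ffar2 was higher and Cnr1 lower (0.35). All 7 Paneth genes measured were lower (-1.31), though each was below free RNA in both types. Both transporters measured, Slc5a1 and Slc6a19, were lower (-1.19), of which Slc5a1 was below free RNA in both types. Higher were 1 of 7 processing enzymes (-0.07) and 1 of 7 goblet genes (Agr2, median -0.02). The 2 ion channels (-0.17) and 1 synaptic gene (-0.58) were within 2-fold.

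I cells were not uniform among themselves. Per cell, Cck ran from 1080 at the 10th percentile to 2574 at the 90th, and Sct from 619 to 2122, with medians of 1724.5 and 1361. Ghrl spread far more, from 10.6 to 824 around a median of 156. Nts had a median of 12.7, a 75th percentile of 111 and a highest value of 1168. Chgb ran from 12.7 to 139 and Agr2 from 15.4 to 102. Over the 431 cells thinned to 2000 UMIs, the Spearman rank correlation was 0.376 for Sct with Nts, -0.251 for Cck with Nts, -0.230 for Cck with Ghrl, -0.148 for Sct with Ghrl, -0.0772 for Cck with Sct and 0.0250 for Ghrl with Nts. The cells share a library and each gene takes part of the same UMIs, so these are descriptions with no test.

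**Figure D3:**
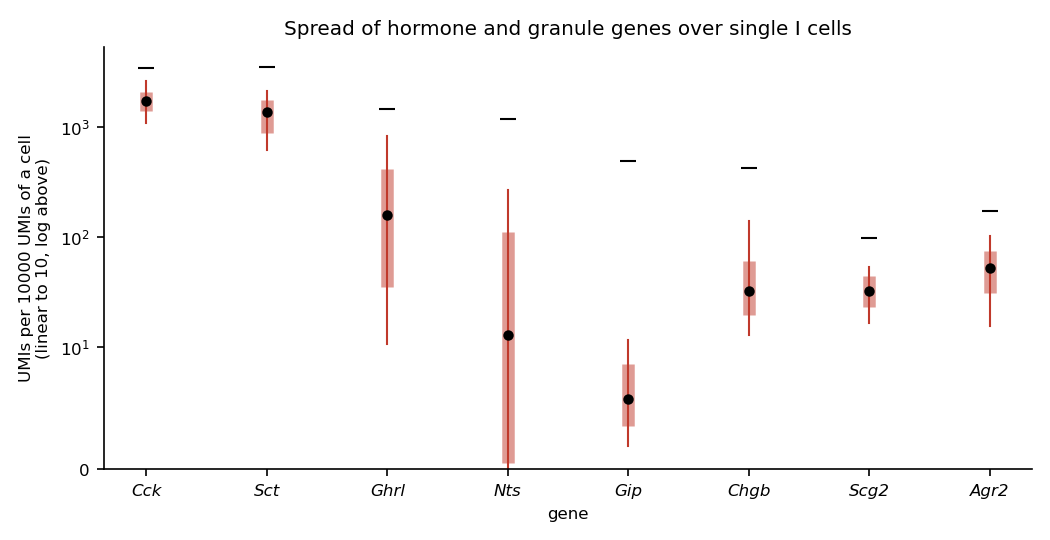
UMIs per 10000 UMIs of each I cell (linear to 10, log above) for hormone and granule genes; dots are medians of 431 cells, thick bars run from the 25th to the 75th percentile, thin bars from the 10th to the 90th, and dashes are the highest cell. Ghrl and Nts are spread over a wider range than Cck and Sct.

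Sorted by Sct and split into 4 sets of equal size, I cells differed in several other genes; those named here and for the next sets were chosen after their values were seen. The 108 cells with the least Sct had 25.8 to 879 UMIs of Sct per 10000 and the 107 with the most had 1739 to 3472, with median depths of 6263 and 5939 UMIs. Of 1210 genes other than Sct, 13 (1.07%) were at least 2-fold higher in the set with the most Sct and 96 (7.93%) at least 2-fold lower. Nts rose through the 4 sets, from 24.9 to 50.1, 95.1 and 161. Chgb stood at 33.6 (32.3 to 34.9) and 100 (97.7 to 103) in the lowest and highest set, Nr4a2 at 0.375 (0.251 to 0.538) and 1.72 (1.42 to 2.07), and Ffar1 at 0.931 (0.728 to 1.17) and 1.88 (1.56 to 2.24). These are 3 of the genes in which N/L cells exceeded I cells or, for Ffar1, stood higher (2.05 in N/L cells). The I cell markers ran the other way, Pzp from 2.47 to 0.868 and Cyp2j5 from 1.21 to 0.372, and Onecut3 from 2.43 to 1.46. Dmbt1, Reg1, S100g and Fabp1 had the largest ratios among the genes lower in the highest set, with 27.2, 32.1, 61.3 and 20.4% of their UMIs in the lowest set held by 1 cell. Without the cells with the highest doublet scores, an alternative chosen after seeing the data, 13 were higher and 76 lower, 12 and 63 of them shared.

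**Figure D4:**
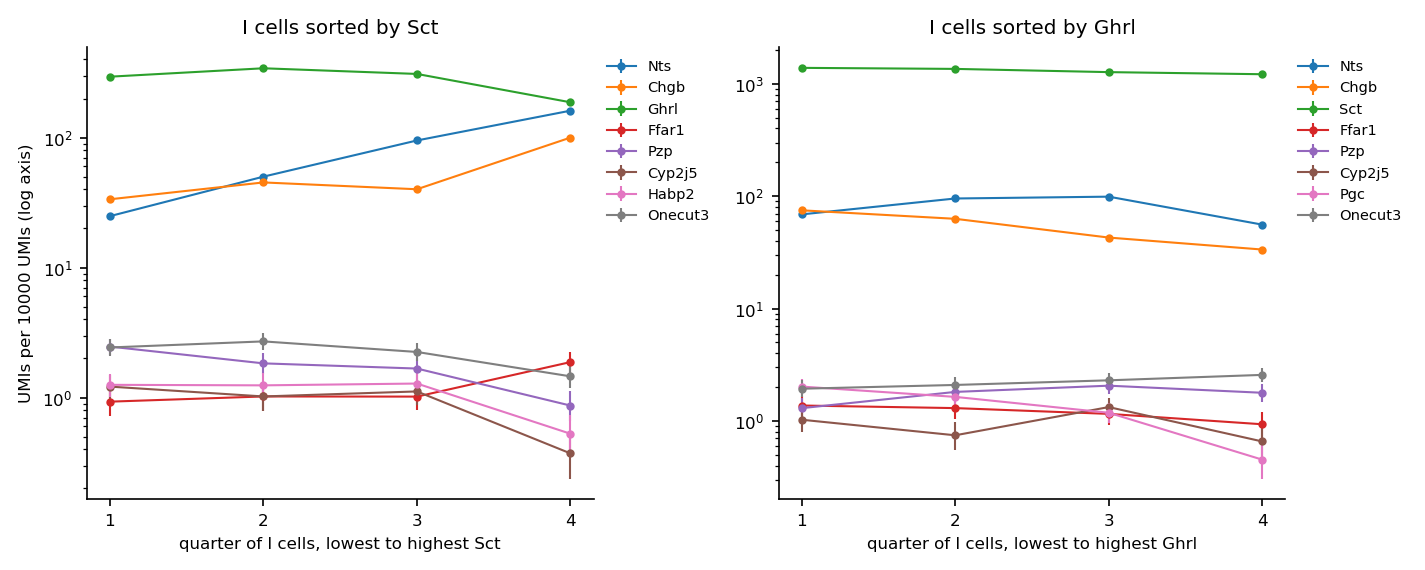
Summed levels (UMIs per 10000 UMIs, log axis) of named genes in 4 sets of 107 or 108 I cells each, sorted by Sct (left) and by Ghrl (right); bars are Poisson 95% intervals. On the left Nts and Chgb end higher, and Pzp and Cyp2j5 lower, in the set with the most Sct.

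Sorted by Ghrl, from 1.85 to 34.8 UMIs per 10000 in the lowest set and 424 to 1451 in the highest, fewer genes differed. Of 1117 genes other than Ghrl, 8 (0.716%) were higher and 29 (2.60%) lower in the highest set. The cell adhesion protein Ceacam10 stood at 0.520 (0.364 to 0.720) in the lowest set and 4.31 (3.83 to 4.83) in the highest, with a UMI in 26 of 108 and 89 of 107 cells. Serpina1c stood at 0.246 and 1.59, Apom at 0.549 and 2.31, Serpina1b at 0.737 and 2.32, and Pcsk1n at 3.47 and 6.997. Chgb ran against Ghrl, from 74.8 (72.8 to 76.9) to 33.5, as did the mitochondrial protein Higd1a, from 3.12 to 0.570, Pgc, from 2.02 to 0.453, and Gast, from 1.16 to 0.409. Onecut3 differed little, at 1.94 (1.62 to 2.29) and 2.57. Sorted by Nts, of 1139 genes other than Nts, 4 (0.351%) were higher and 20 (1.76%) lower in the highest set. The higher genes were Fam101a, 1500009L16Rik, the glycolysis regulator Pfkfb3 and Ccl5, of which Ccl5 had 81.8% of its UMIs in 1 cell. Adamts5, a matrix protease, stood at 1.18 (0.941 to 1.46) in cells with no or hardly any Nts and at 0.231 (0.132 to 0.375) in the set with the most. Qpct was at 1.14 and 1.86 and Sct at 1077 and 1676. Without the cells with the highest doublet scores, the sets by Ghrl gave 6 higher and 22 lower genes and those by Nts 6 and 14.

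The bulk libraries carry replicates that the selection of I cells did not use, and they were tested with limma on log2(normalized count + 1) over all 22042 genes. The sort does not isolate I cells, since N/L cells and cells with Cck and Tph1 also make Cck, and in bulk samples fewer cells of a type and less RNA per cell cannot be told apart. Gip, for instance, stood at 34279, 10775 and 18225 normalized counts in CCK+ cells of fasted mice A, B and F and 20310, 29342 and 18175 in those of refed mice C, D and E, against 33.3 to 78.0 in CCK- cells. All 12 immune genes were also higher in CCK+ cells, with Gzma the most abundant. Summed over the list, the CCK+ libraries stood at 6270, 10953 and 5990 in fasted mice A, B and F and 8724, 9229 and 7879 in refed mice C, D and E. The CCK- libraries stood at 798, 1235, 693, 821, 802 and 513 in the same order, and no immune gene was at 0 in all CCK+ libraries. The part of these cells in the values below was not tested.

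The 4 I cell markers other than Cck were higher in CCK+ than in CCK- cells, in all 6 mice, where 4324 of 22042 genes (19.6%) were higher and 3107 (14.1%) lower. Cck, on which both the I cells and the sort were chosen, was higher too and is given as a check of the labels. It stood at 20166, 15183 and 25000 normalized counts in CCK+ cells of fasted mice A, B and F and at 32592, 26039 and 14837 in those of refed mice C, D and E. The CCK- libraries of the same mice had 43.2, 65.3, 86.0, 50.1, 29.9973 and 27.6. No CCK- library came near a CCK+ library. Onecut3 stood at 498, 291 and 384 in CCK+ cells of fasted mice and 477, 436 and 307 in those of refed mice, and at 13.3, 6.07, 15.6, 12.2, 12.04 and 5.96 in CCK- cells. Pzp stood at 686, 238 and 423, and 721, 293 and 348, against 0.932 to 7.17 in CCK- cells. For both genes the lowest CCK+ library lay far above the highest CCK- library, and fasted and refed values overlapped. The log2 difference was 5.12 (SE 0.26) for Onecut3, 6.79 (SE 0.37) for Pzp, 7.38 (SE 0.17) for Sct and 5.55 (SE 0.48) for Cyp2j5, with limma adjusted p of 4.75e-09, 9.11e-09, 4.88e-12 and 7.09e-07, each higher in 6 of 6 mice.

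Of the 30 leading genes, 29 were in the bulk table (D930028M14Rik was not), and all 29 were tested. In CCK+ cells 19 were higher, Cck among them, and 6 lower, with a median log2 difference of 2.57 beside 0.09 over all genes. In each of the 6 mice 17 of the 29 were higher, beside 3578 of all 22042 genes. Nts led those outside the markers, with a log2 difference of 8.42 (SE 0.26, limma adjusted p 5.94e-11, higher in 6 of 6 mice), followed by Scg2 with 8.36 and Etv1 with 8.12 (SE 0.39, limma adjusted p 2.25e-09, higher in 6 of 6). Etv1 stood at 1159, 326 and 1167 in CCK+ cells of fasted mice and 1415, 1253 and 600 in those of refed mice, and at no more than 4.75 in CCK- cells. Qpct stood at 30.3, 30.6 and 46.5 and at 62.6, 61.6 and 44.2 in the same libraries, and at 5.04 or less in CCK- cells. All CCK+ libraries were above all CCK- libraries for both genes. The fatty acid receptor Ffar1 (5.18), the secreted phospholipase Pla2g2f (6.40) and Pgc (6.03) also had large log2 differences.

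The 6 leading genes that were lower in CCK+ cells were Fmo5, Cyp2j6, Ms4a10, Gimd1, S100g and Sis, all lower in 6 of 6 mice. Sis stood at 20858, 34427 and 21449 in CCK+ cells of fasted mice and 31346, 24321 and 20416 in those of refed mice, and at 64185 to 84025 in CCK- cells, so that the groups did not overlap. The log2 difference was -1.53 for Sis (SE 0.18, limma adjusted p 1.64e-05, lower in 6 of 6 mice) and -1.06 for Fmo5 (SE 0.15, limma adjusted p 6.85e-05, lower in 6 of 6). Without the CCK+ library of fasted mouse A, S100g was not called and 5 were lower. In fasted libraries alone Sis, Fmo5 and Ms4a10 were not called, and in refed libraries alone Cyp2j6 and S100g were not. Of the 14 enterocyte genes 11 were lower in CCK+ cells and none higher. That list summed to 229386 to 484765 in CCK+ and 558857 to 746535 in CCK- libraries, led by Apoa1, and no gene of it was at 0 throughout. Its part in the 6 differences was not tested. Fgl2, Tle1, Upp1 and Cops6, the leading genes that were not called, had log2 differences of 0.07, -0.23, -0.17 and 0.10 (limma adjusted p 0.650, 0.409, 0.585 and 0.637, CCK+ higher in 3, 1, 2 and 4 of 6 mice).

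**Figure D5:**
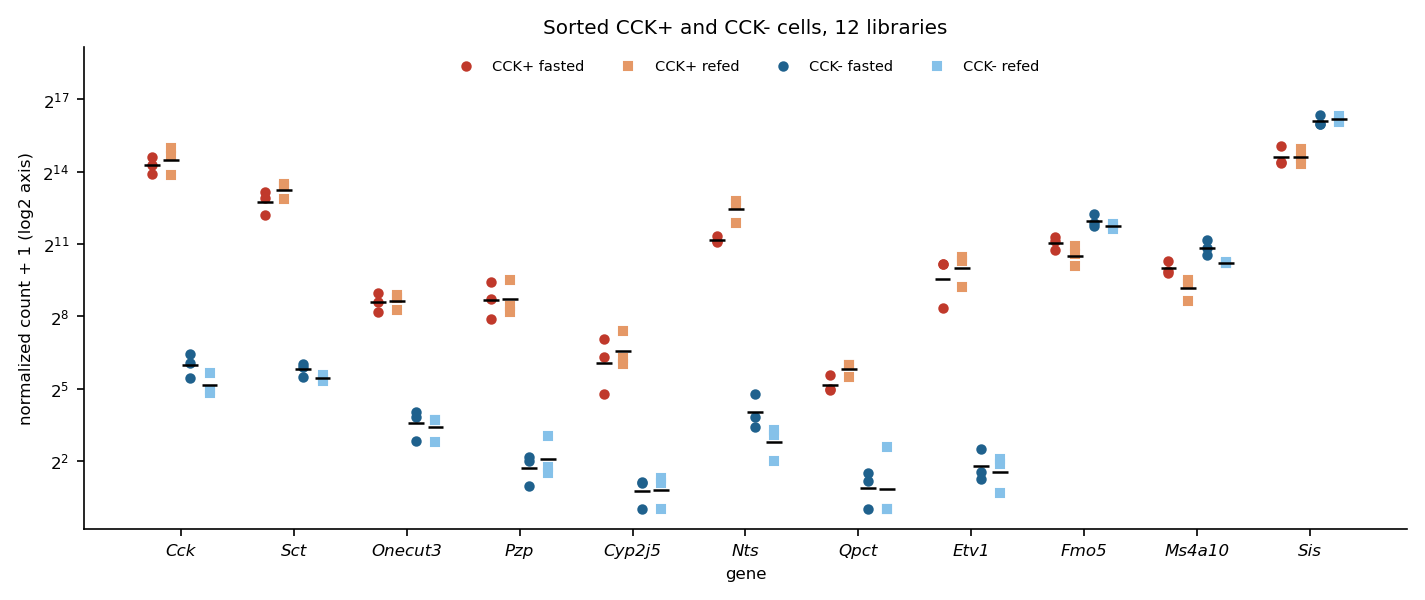
Normalized counts plus 1 (log2 axis) of I cell markers and leading genes in the 12 sorted libraries; each point is 1 library, and bars are means of the log2 values of 3 libraries. From Cck to Etv1 all CCK+ libraries lie above all CCK- libraries, and Fmo5 and Sis lie lower in CCK+.

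The genes past 2-fold between I cells and the other Cck-high cells were looked up in the sorted cells. Of the 18 genes higher in I than N/L cells, 17 were in the table, 10 higher and 5 lower in CCK+ cells, with a median log2 difference of 3.24. The 9 genes lower in I cells were all higher in CCK+ cells (median 6.25), as were 21 of the 26 genes lower in I cells than in cells with Cck and Tph1 (median 3.35, none lower). Of the 4 genes higher in I cells in that contrast, 1 was higher and 3 lower (median -1.29). Over all genes 19.6% were higher and 14.1% lower. By list, 28 of 30 granule genes (median 4.74), 23 of 31 endocrine transcription factors (3.18), 15 of 23 hormone genes (5.33) and 11 of 14 processing enzymes (2.26) were higher in CCK+ cells, with 0, 1, 1 and 2 lower. Of sensing and signaling genes, 21 of 34 ion channels (2.63), 14 of 25 hormone and transmitter receptors (1.62), 12 of 20 nutrient receptors (1.32), 10 of 19 synaptic genes (1.22) and 7 of 18 transporters (0.23) were higher, with 2, 1, 2, 1 and 7 lower. Of 15 regional factors 3 were higher and 4 lower (0.43), of 12 goblet genes 1 and 2 (-0.02), of 10 tuft genes 1 and 1 (-0.42), of 12 cycling genes 6 and 0 (0.91) and of 8 Paneth genes none either way (0.33).

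Refeeding was not accompanied by a change in leading genes that passed the test. In CCK+ cells limma called 0 of the 29 leading genes between refed and fasted mice, where 289 of all genes (1.31%) were higher and 272 (1.23%) lower in refed mice. At unadjusted p under 0.05 there were 4 of 29, beside 3736 of all genes, and the smallest adjusted p by limma was 0.0655, for Ms4a10 (log2 difference -0.84, SE 0.22, all 3 refed libraries below all 3 fasted). The median log2 difference over leading genes was 0.06, beside 0.01 for all genes. Nts stood at 2605, 2261 and 2163 in fasted mice A, B and F and at 6479, 7116 and 3796 in refed mice C, D and E. The lowest refed library was above the highest fasted one, and the log2 difference of 1.26 (SE 0.37) had a limma adjusted p of 0.0945, with 3 of 3 refed libraries higher. With a pseudocount of 10 in place of 1, Nts alone of the leading genes was called, at a limma adjusted p of 0.0311; over the 16 alternatives its adjusted p ran from 0.0311 to 0.362. The counts over all genes rested on single libraries. Without the CCK+ library of mouse D they were 74 higher and 29 lower, without B 111 and 82, without E 122 and 61, without F 219 and 132, and without A 436 and 440. Without the CCK- library of mouse D they were 188 and 145, without A 212 and 169, and without C 216 and 178, and from the CCK+ libraries alone they were 0 and 0. The rest of the markers overlapped: for Cck the log2 difference was 0.24 (SE 0.32, limma adjusted p 0.762), with refed mice C and D above and mouse E below all fasted libraries, and for Sct 0.51 (SE 0.24, limma adjusted p 0.305), with refed C and D above all fasted libraries and E within their range.

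The difference in the feeding contrast between CCK+ and CCK- cells was called by limma for 1 of 22042 genes (0.00454%), which is Gvin1, named here after its value was seen, and for 0 of 29 leading genes. Of the 29 leading genes 4 had an unadjusted limma p under 0.05, beside 1378 of all 22042 genes (6.25%). The smallest limma adjusted p among leading genes was 0.460, for Nts. In CCK- cells Nts stood at 26.6, 9.72 and 13.4 in fasted and 8.88, 7.41 and 2.98 in refed mice, lower in all 3 refed. The ratio of CCK+ to CCK- cells for Nts was 97.8, 233 and 162 in fasted mice A, B and F and 730, 960 and 1273 in refed mice C, D and E, with no overlap. For Cck it was 467, 233 and 291 in fasted and 651, 868 and 537 in refed mice, also with no overlap. For Sct it was 156, 71.9 and 174 in fasted and 268, 246 and 188 in refed mice, again without overlap. Among other leading genes, the ratio of Cops6 was higher, and that of Rfxap lower, in all 3 refed mice than in all 3 fasted mice. These genes were named after their ratios were seen, and limma called none of them in this contrast. How many of all genes had ratios without overlap was not counted, so the lack of overlap is a description only. With mouse as replicate block, an alternative chosen after seeing the data, limma gave Nts an adjusted p of 0.209 (log2 difference 2.49, SE 0.33), and again called 1 gene over all and 0 of 29. None of the 5 markers was called in the feeding contrast, nor any of the genes higher in I cells than in N/L cells, 0 of 17. Of the 26 genes lower in I cells than in cells with Cck and Tph1, 3 were higher in refed mice. Of the 9 genes lower in I cells than in N/L cells, 2 were higher, both also among the 3: Reg4 (log2 1.31, SE 0.29, limma adjusted p 0.0285, 3 of 3 refed libraries above all fasted) and Afp (1.59, SE 0.34, limma adjusted p 0.0228, 3 of 3). Reg4 stood at 15260, 6000 and 12594 in fasted and 21108, 27519 and 30226 in refed CCK+ cells, and these groups did not overlap. Afp stood at 4410, 1422 and 4610 in fasted and 8708, 9168 and 9860 in refed CCK+ cells, again with no overlap. These calls changed with the libraries used: of 16 alternatives limma called Reg4 in 4 and Afp in 8, with log2 differences of 0.91 to 1.58 and 1.03 to 1.88 and adjusted p of 0.0239 to 0.258 and 0.0205 to 0.257. Reg4 was no longer called when any 1 library other than CCK+ of fasted mouse A was left out, nor was Afp without CCK+ of mouse C, D or E or CCK- of mouse A, B, C or D. In the droplet library both genes were below free RNA in I cells and in N/L cells. Summed over the immune list, fasted and refed CCK+ libraries overlapped. Granule genes did not overlap, at 156191, 68863 and 112916 in fasted mice A, B and F and 182807, 249698 and 227880 in refed mice C, D and E. Sums of processing enzymes, endocrine transcription factors and cycling genes were also higher in all refed than in all fasted CCK+ libraries, and those of transporters lower. Sums of the other lists overlapped. The part of these sums in the values of Reg4, Afp and Nts was not tested. Over all genes 1.31% were higher and 1.23% lower in refed mice. Of the other lists, single genes were called in the feeding contrast: 1 processing enzyme, 1 transcription factor and 1 cycling gene higher, 1 hormone, 1 nutrient receptor, 1 hormone receptor, 1 ion channel and 1 enterocyte gene lower. Among transporters 1 was higher and 5 lower, and no gene was called in the granule, regional, synaptic, goblet, Paneth, tuft or immune lists.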

How the data were processed

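The authors deposited UMI counts per gene and barcode, made with Cell Ranger 2.0.1 on mm10, and signal for 12 bulk libraries, which are normalized counts from Trim Galore 0.6.7, Salmon 1.6.0 on GRCm39 cDNA, tximeta and DESeq2, per the submitters' processing notes. These deposited signal values are not whole reads, so limma 3.58.1 (R 4.3.3) was used on log2(value + 1) with a trend, 4 group means and Benjamini-Hochberg adjustment over all 22042 genes, called under 0.05. Cells had more than 1000 genes and under 10% mitochondrial UMIs. Scrublet ran in scanpy 1.11.5 with scikit-learn 1.9.0, intervals came from scipy 1.17.1, and tables and figures from pandas 2.3.3, numpy 2.4.6 and matplotlib 3.10.9 under Python 3.11.15. The steps were tested on simulated data. Doublets were kept, with values without the highest scores as an alternative. The sample titles call all bulk groups CCK+, and the cell type labels, used here, name CCK- cells. Libraries of 1 mouse correlated in their deviations from group means over genes (0.0463 to 0.0650, other pairs -0.0455 to -0.00973), and genes are not independent replicates. Intervals cover counting error only.

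Members and lists were chosen with earlier results of these data known. Named were the genes of the selection and markers, the highest and 2-fold members of each list, up to 15 of 30 leading genes, and the 10 genes with the largest ratios each way against N/L cells and against cells with Cck and Tph1. Other names were chosen after their values were seen.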

Additional observations from a re-analysis of the deposited data

How the results depend on the processing

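The share of I cells moved with the cells counted and the limits: 2.84% (471 of 16570) over 500 genes per cell, 6.83% (365 of 5344) over 1500 genes, 5.48% (391 of 7129) for barcodes called by the Cell Ranger 2 rule, 2.53% (239) with Gcg and Pyy under 10 and Tph1 under 5, and 3.98% (374 of 9393) in cells thinned to 2000 UMIs. The limits or the cells counted differ by construction, and the cause was not tested further. With a Cck limit of 250 or 1000 or without the highest doublet scores it was 4.76, 4.19 and 4.78%. Over these 8 settings Onecut3 ran from 2.06 to 2.32 and Ffar1 from 1.14 to 1.23, within the counting interval, while Nts ran from 70.7 to 85.8 and Ghrl from 264.1 to 319.3, mostly outside it.

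Genes over 2-fold between I and N/L cells numbered 46 with a level of at least 0.5, where more genes are counted, 8 at 3-fold, where fewer can pass, and 25 to 36 in the other 9 settings. The 36, from UMIs outside 8 hormone genes, the sets of I cells without the highest doublet scores, and the 22 genes over 2-fold against cells with Cck and Tph1 without those scores (30 with them) were alternatives chosen after seeing the data.

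In CCK+ against CCK- cells, 19 leading genes were higher with each library left out (19 to 19), and 19 higher and 6 lower with mouse as replicate block, so pairing changed neither count; over all genes it gave 4370 higher and 3301 lower. With a mean of at least 10 they were 18 and 6, in fasted libraries alone 17 and 3, and in refed libraries alone 17 and 4. In refed against fasted CCK+ cells limma called 1 leading gene (Nts) with a pseudocount of 10 and 0 in the other settings (0 to 0 with 1 library left out), and 0 in the difference of this contrast between CCK+ and CCK- cells, with and without mouse as replicate block; the cause was not tested. One droplet library leaves differences between animals unmeasured.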
